A study of Cyclotella cryptica with 27 samples.

Results

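Transcript levels 2 h after a move into freshwater were compared with those of a seawater control in Cyclotella cryptica strain CCMP332, a centric diatom that tolerates a wide range of salinity. The comparison used the 2 independent freshwater 2 h columns, replicates 1 and 3, and the 1 independent seawater control column, replicate 1, 3 of the 16 independent columns and 27 labelled samples of the series. All groups were the same strain grown in artificial seawater at 24 ppt, 15 °C and a cycle of 16 h of light and 8 h of dark. The 2 h cells were spun at 800 g for 3 min, resuspended in medium at 0 ppt and kept there for 2 h at 15 °C, and the control is labelled as 0 min in seawater at 24 ppt. The other times used beside them were 0 min (1 independent column), 1 h (1 column) and 4 h (2 columns) in freshwater. The labels describe the transfer for every sample alike, and they do not tell apart whether control cells were spun too, nor do they give the time of day of each collection.

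The 3 labelled replicates of the 2 h group were not 3 measurements. Replicate 2 equalled the mean of replicates 1 and 3 in 99.96% of the 5179 genes with at least 100 counts. In the control, replicate 2 was replicate 1 minus 7 counts in 99.95% of 5643 such genes, and replicate 3 was close to a scaled copy of it (slope 0.981). The control therefore has no replicate of its own, and its 1 column was assumed to vary like the other groups, whose spread was shared in the fit. Where nothing in the labels says that columns came from separate cultures, p-values measure only the spread between these samples, which may be technical.

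A diatom cell moved into water of lower salinity takes up water, and must lose ions and organic solutes to keep its volume and turgor. Such cells commonly adjust ion transport, amino acid and carbon metabolism, protein synthesis and the amount of light-harvesting pigment. The plastid of a diatom carries fucoxanthin-chlorophyll a/c proteins as its main antenna, chlorophyll is made from glutamate through porphyrins, and the xanthophyll cycle enzymes adjust how much absorbed light is lost as heat. As a check of the labelled organism, the 26 tested genes named as fucoxanthin-chlorophyll proteins summed to 11550 CPM in the control and to 5843 and 7532 CPM at 2 h, and a gene named for the silicon efflux transporter LSI2, known from rice, was counted in all 3 columns. No tested gene was named as a frustule protein (0 genes).

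Gene counts summed to 3537770 in the control, 3164256 in 2 h replicate 1 and 3088729 in 2 h replicate 3, within a range of 2599734 to 6889349 over the 27 columns. Reads aligned in more than 1 place, which were not counted, made up 28.3% of the control's reads, 27.3% of replicate 1's and 34.1% of replicate 3's, out of the sum of counted, ambiguous and multiply aligned reads. One gene without a protein name, CCRYP_005887, held 14.3% of the control counts, 23.3% of those of replicate 1 and 19.4% of those of replicate 3, and its difference did not pass the test (log2 fold change 0.61, adjusted p = 0.571). Values are shares of a library, given as CPM, the count of a gene scaled to a common library total after TMM adjustment, so that fewer cells in a given state and less RNA per cell cannot be told apart. The root mean square distance in log2 CPM was 0.48 between the 2 h columns, against 0.71 and 0.62 from replicates 1 and 3 to the control.

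Of 12501 genes tested, 611 were called at 2 h against the seawater control by edgeR's quasi-likelihood test at a Benjamini-Hochberg adjusted p below 0.05, which is 4.89%. Of these, 367 were higher (2.94% of tested genes) and 244 lower (1.95%). The median log2 fold change was 0.08 over all tested genes, 1.22 over the genes called higher and -0.89 over those called lower. With DESeq2 size factors in place of TMM the split was 340 higher and 363 lower, and with library sizes alone 302 and 296, so the excess of higher calls (60.1% by TMM, 48.4% and 50.5% otherwise) depends on the scaling. Leaving out 2 h replicate 1 left 98 calls, 85 higher and 13 lower, and leaving out replicate 3 left 659, 333 higher and 326 lower.

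**Figure D1:**
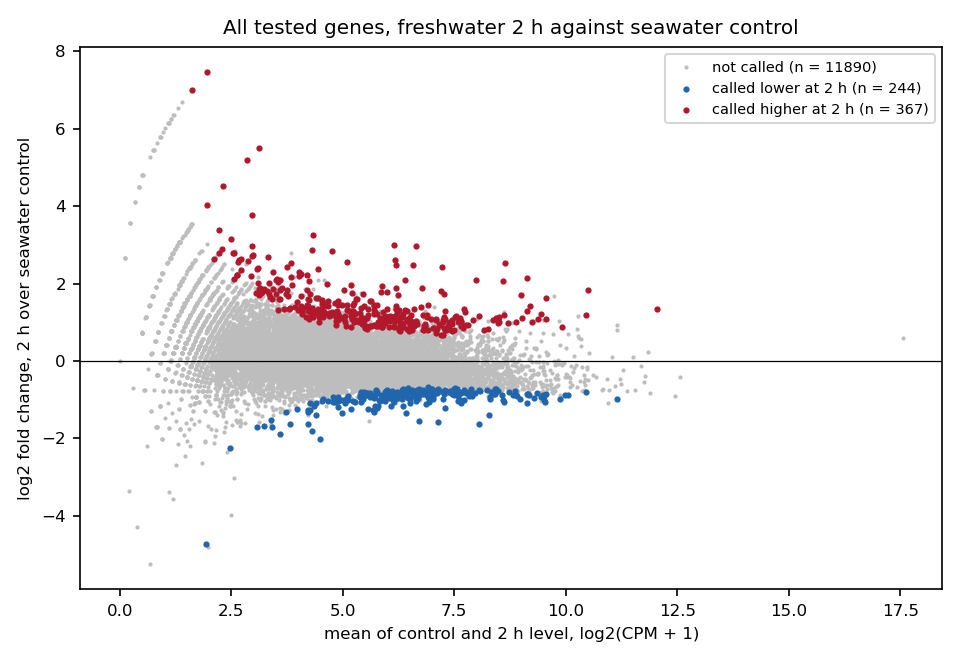
Each point is 1 of 12501 tested genes, by the mean of its control and 2 h level in log2(CPM + 1) on the x axis and its log2 fold change, 2 h over seawater control, on the y axis. The 367 genes called higher are red and the 244 called lower are blue, and the largest changes lie at low levels, where few counts stand behind them.

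The components of the cytosolic ribosome were higher at 2 h. Of 74 tested genes named as 40S or 60S ribosomal proteins, the structural proteins of the ribosome's small and large subunits, 27 rose and 0 fell, against 2.94% of all tested genes called higher, and the list's median log2 fold change was 0.83. All 74 had both 2 h columns above the control, as had 5443 of all 12501 tested genes. The 40S protein S30 (CCRYP_020564) was at 19.6 CPM in the control and at 57.4 and 49.1 CPM at 2 h, a log2 fold change of 1.44 ± 0.34 (SE, n = 2 against 1 column, adjusted p = 0.0193 by edgeR's quasi-likelihood test). The 60S protein L12-A (CCRYP_005564) was at 29.3 CPM in the control and at 69.3 and 77.3 CPM at 2 h (log2 fold change 1.32 ± 0.32). The 40S protein S26-B (CCRYP_011521) was at 43.5 CPM in the control against 108 and 109 CPM (1.32 ± 0.31). In each of the 3 genes both 2 h columns were over 2 times the control and close to each other. Reads of near-identical copies were not counted, so the levels of single ribosomal protein genes are uncertain. With 2 h replicate 1 left out 1 of the 74 was called and with replicate 3 left out 9, while the median stayed at 0.87 and 0.82. Of the 34 ribosomal proteins of plastid and mitochondrion 0 were called, with a median of 0.41.

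Factors that work on or beside the cytosolic ribosome followed the same direction in part. Of 57 translation factors, 7 rose (12.3%, against 2.94% of all tested genes) and 0 fell, with a median log2 fold change of 0.54. The cap-binding factor eIF4E-2 (CCRYP_015172) was at 54.4 CPM in the control, 171 CPM in replicate 1 and 104 CPM in replicate 3 (1.34 ± 0.26, adjusted p = 0.00769). Subunit H of eIF3 (CCRYP_003257), the complex that brings the small subunit to the mRNA, was at 21.1 CPM against 41.6 and 58.5 CPM (1.24 ± 0.30). Initiation factor 6 (CCRYP_009173), which in yeast and animals keeps the subunits apart, was at 44.1 CPM against 101 and 95.0 CPM (1.15 ± 0.24). In eIF4E-2 the columns differed most from each other, with replicate 1 the higher. The other 4 called factors were eIF1, elongation factor 3, eIF2 subunit beta and eIF3 subunit D, with log2 fold changes from 0.69 to 1.13. Without replicate 1, 1 of the list was called.

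The factors that build ribosomes in the nucleolus had a small number of calls. Of 74 ribosome biogenesis genes, 6 rose (8.11%, against 2.94%) and 0 fell (median 0.51), and 0 were called without replicate 1. In 52 of the 74 both 2 h columns were above the control, as in 5443 of all 12501 tested genes. Ribosomal RNA-processing protein 7 (CCRYP_007700) was at 3.32 CPM in the control and at 12.5 and 11.6 CPM at 2 h (1.85 ± 0.54, adjusted p = 0.0469). The pre-rRNA factor esf2 (CCRYP_019359) was at 11.5 CPM against 32.4 and 20.6 CPM (1.21 ± 0.35). TSR2 (CCRYP_008573) was at 10.6 CPM against 24.3 and 22.4 CPM (1.14 ± 0.33). All 3 lost the call in at least 5 of the 13 alternatives run. Of 63 RNA helicases, 3 rose (4.76%, median 0.27), and 1 was called without replicate 1. The translation helicase eIF4A (CCRYP_008578) was at 128 CPM in the control and at 239 and 281 CPM at 2 h (1.02 ± 0.22, adjusted p = 0.0110), a call that every alternative kept. DDX47 (CCRYP_005080), a nucleolar helicase in animals, was at 12.4 CPM against 31.8 and 31.1 CPM (1.34 ± 0.37), and DBP9 (CCRYP_012353), needed for the large subunit in yeast, was at 36.2 CPM against 83.8 and 62.1 CPM (1.01 ± 0.26).

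The tRNA ligases, which load amino acids onto tRNA, had few calls: 1 of 44 rose (2.27%) and 3 fell (6.82%, against 1.95% of all tested genes), with a median of 0.20. Without 2 h replicate 1, and also by limma-voom, 0 were called in either direction, and with the mean of the control columns 0 were called lower. The organelle arginine ligase (CCRYP_014247) was higher, at 31.1 CPM in the control against 56.1 and 57.8 CPM (0.87 ± 0.25). The lysine ligase CCRYP_005323 was lower, at 144 CPM against 65.6 and 97.2 CPM (-0.83 ± 0.23), and so was a glycine ligase (CCRYP_018852), at 183 CPM against 94.3 and 121 CPM (-0.77 ± 0.22). Replicate 1 was below replicate 3 in 38 of the 44 tRNA ligases, against 52.1% of all tested genes.

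Genes of RNA splicing and cell division had small numbers of calls, all upward. Of 61 splicing factors 6 rose (9.84%, against 2.94% of all tested genes, median 0.45), among them splicing factor 3A subunit 2 (CCRYP_011244), at 4.83 CPM in the control against 19.9 and 14.5 CPM (1.83 ± 0.43). The Sm-like protein LSM7 (CCRYP_018926) was at 8.45 CPM against 22.6 and 23.1 CPM (1.43 ± 0.38), and CWC15 (CCRYP_011209) at 9.66 CPM against 29.1 and 22.4 CPM (1.41 ± 0.39). Of 85 cyclin and cell cycle genes 5 rose (5.88%, median 0.27). Cyclin-dependent kinase 1 (CCRYP_002502), which drives entry into mitosis, was at 13.3 CPM against 34.1 and 30.3 CPM (1.28 ± 0.33). The cyclin-E2 gene (CCRYP_006698), named for a cyclin of the start of DNA synthesis, was at 12.1 CPM against 46.3 and 21.0 CPM (1.48 ± 0.42), with replicate 1 at over 2 times replicate 3. The mitotic cyclin CCRYP_002107 was at 9.66 CPM against 25.7 and 19.1 CPM (1.21 ± 0.36), a call that 8 of the 13 alternatives ended. With replicate 1 left out, 0 members of either list were called. Histone genes had a median of 0.79 with 22 of 25 above the control in both columns, yet 0 were called. Of all 12501 tested genes 5443 were above the control in both. Of 115 DNA replication and repair genes 1 was called (0.870%), and it fell, against 1.95% of all tested genes called lower. It was a DNA ligase (CCRYP_000326), at 68.2 CPM in the control against 35.8 and 43.4 CPM (-0.79 ± 0.23).

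**Figure D2:**
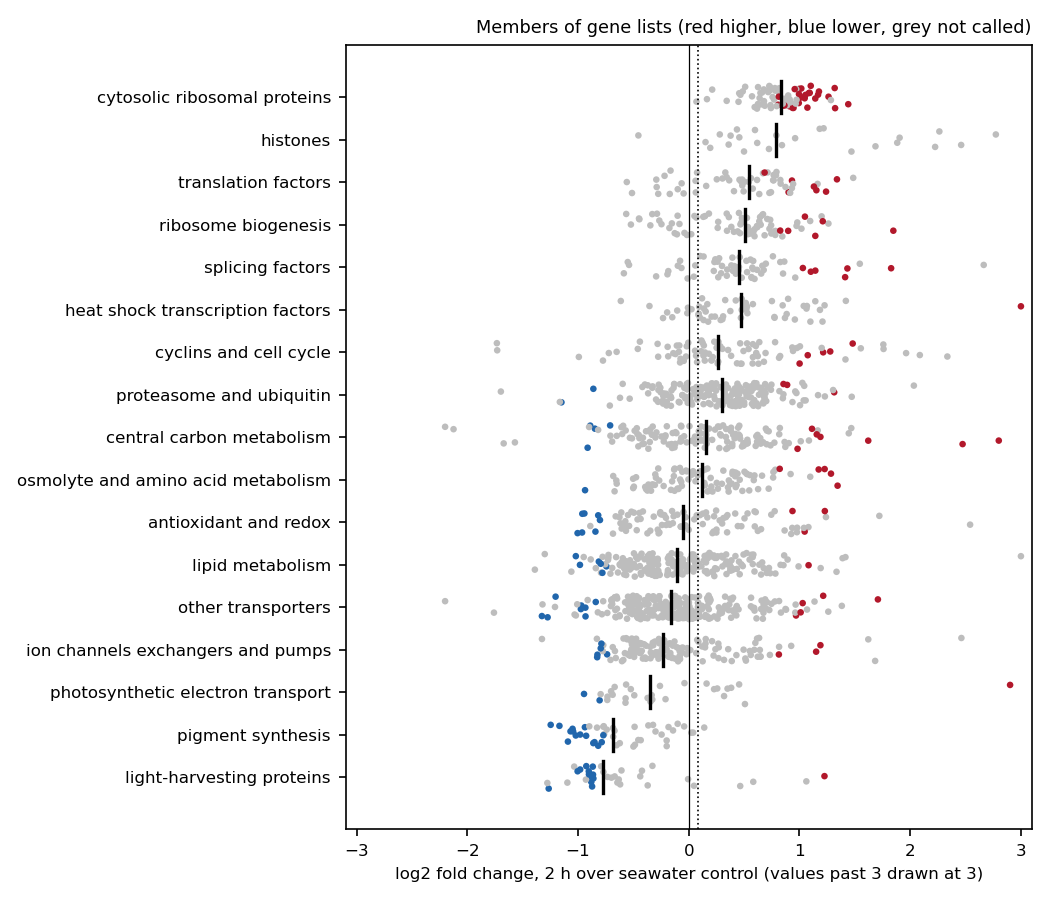
Log2 fold change, 2 h over seawater control, on the x axis for every tested member of 17 gene lists, 1 row a list, with the list's median as a black bar, the median of all tested genes as a dotted line and a vertical spread of points that carries no value. Ribosomal proteins lie to the right with 27 of 74 called higher (red), while pigment synthesis and light-harvesting proteins lie to the left with 15 of 44 and 12 of 35 called lower (blue).

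Genes of the photosynthetic antenna were lower at 2 h. Of 35 tested light-harvesting proteins, 12 fell and 1 rose, against 1.95% of all tested genes called lower. The median log2 fold change was -0.77. In 29 of the 35 both 2 h columns were below the control, as in 4540 of all 12501 tested genes. Summed over the list, the level was 13762 CPM in the control, 6910 CPM in replicate 1 and 8946 CPM in replicate 3. All 8 called members with fucoxanthin in their name fell, by 0.86 to 0.93 on the log2 scale. Fucoxanthin protein A (CCRYP_015997) was at 910 CPM in the control and at 396 and 562 CPM at 2 h, and fucoxanthin protein F (CCRYP_017196) at 297 CPM against 165 and 152 CPM. Both columns of each gene were below the control.

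The 5 genes named LI818, a class of antenna protein that in algae takes part in protection against excess light, did not share a direction. CCRYP_010211 was at 70.4 CPM in the control, 15.5 CPM in replicate 1 and 43.4 CPM in replicate 3 (-1.26 ± 0.33, adjusted p = 0.0376). CCRYP_010212 was at 92.1 CPM against 31.4 and 60.7 CPM (-1.004 ± 0.28, adjusted p = 0.0439). CCRYP_010128 went the other way, from 11.2 CPM to 27 and 25.3 CPM (1.23 ± 0.35, adjusted p = 0.0442), a call that 6 of the 13 alternatives ended. The remaining LI818 genes, CCRYP_010215 and CCRYP_013391, were not called, with log2 fold changes of -0.67 and -0.33. These genes share a protein name, and their sequences were not compared. Reads aligned in more than 1 place were not counted, and how far this lowers the level of each gene was not tested.

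The enzymes of chlorophyll and carotenoid synthesis were lower as well. Of 44 tested genes 15 fell and 0 rose (median -0.68), against 1.95% of all tested genes called lower. In 38 of the 44 both columns were below the control, as in 4540 of all 12501 tested genes. The called genes covered many of the steps from glutamate to chlorophyllide. Among them were glutamate-1-semialdehyde aminomutase (CCRYP_017424, -0.77), aminolevulinic acid dehydratase (CCRYP_006561, -0.85), porphobilinogen deaminase (CCRYP_005649, -0.94), uroporphyrinogen-III synthase (CCRYP_005457, -0.98), 2 uroporphyrinogen decarboxylases (CCRYP_020134 at -1.25 and CCRYP_001796 at -0.93), protoporphyrinogen oxidase (CCRYP_017359, -0.86), the ChlD subunit of magnesium chelatase (CCRYP_005476, -1.05), divinyl chlorophyllide reductase (CCRYP_010265, -1.07) and protochlorophyllide reductase (CCRYP_012706, -1.09), all as log2 fold changes. Protochlorophyllide reductase, the light-dependent step, was at 758 CPM in the control and at 297 and 415 CPM at 2 h (SE 0.26, adjusted p = 0.0234). The decarboxylase CCRYP_020134 was at 49.8 CPM against 19.9 and 22.0 CPM (SE 0.27, adjusted p = 0.0130). On the carotenoid side, 2 prolycopene isomerases (CCRYP_003022 and CCRYP_009718) fell by 1.04 and 1.02 on the log2 scale, phytoene synthase (CCRYP_007830), the entry step, fell by 0.79 on the log2 scale, and violaxanthin de-epoxidase (CCRYP_009294), a xanthophyll cycle enzyme, was at 74.9 CPM against 27 and 39.7 CPM (-1.17 ± 0.23, adjusted p = 0.00810).

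These plastid calls rest on replicate 1, as did most calls over all tested genes. Replicate 1 was below replicate 3 in 29 of the 35 light-harvesting genes and 37 of the 44 pigment genes, against 52.1% of all tested genes. Without it, 0 members of either list were called and the medians were -0.60 and -0.53, and without replicate 3 the lower calls were 16 and 21. The photosynthetic electron transport genes had a median of -0.35 with 2 of 29 called lower (6.90%) and 1 higher (3.45%). Over all tested genes these shares were 1.95% and 2.94%. Oxygen-evolving enhancer protein 1 (CCRYP_005336), which stabilises the manganese cluster of photosystem II, was at 1780 CPM in the control against 908 and 1129 CPM (-0.81 ± 0.23). A gene named photosystem I chlorophyll a/b-binding protein 5 (CCRYP_018614) was at 817 CPM against 332 and 517 CPM (-0.95 ± 0.27), while one named as a photosystem II 12 kDa extrinsic protein (CCRYP_019612) had 3 control counts and 40 at 2 h, a ratio of 7.71 with a 95% exact counting interval of 2.46 to 38.96.

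Central carbon genes had calls in both directions, and those called higher included several enzymes that use or make pyruvate. Of 143 genes 7 were higher (4.90%, against 2.94% of all tested genes) and 4 lower (2.80%, against 1.95%), with a median of 0.15. Pyruvate dehydrogenase E1 alpha (CCRYP_012039), part of the complex that turns pyruvate into acetyl-CoA, was at 28.7 CPM in the control and at 141 and 178 CPM at 2 h. That is a 5.55-fold higher mean and a log2 fold change of 2.47 ± 0.34 (adjusted p = 0.000372). Pyruvate carboxylase (CCRYP_010390), which makes oxaloacetate from pyruvate, was at 368 CPM against 1007 and 1259 CPM (1.62 ± 0.30, adjusted p = 0.00392). In both genes the 2 h columns stood well apart from the control and every alternative kept the call. Of the 4 tested genes named pyruvate dehydrogenase, grouped after their values were seen, 2 were called. An E1 beta gene (CCRYP_008722) lay the other way without being called, at 11.5 CPM in the control against 3.72 and 3.97 CPM (-1.57, adjusted p = 0.0721).

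Further members of the list that were called higher are pyruvate, phosphate dikinase (CCRYP_020923), a gene named pyruvate dehydrogenase (CCRYP_018870), fumarate hydratase 2 (CCRYP_018362), the succinate-acetate/proton symporter SatP (CCRYP_009163) and D-3-phosphoglycerate dehydrogenase (CCRYP_020254). The dikinase, which converts between pyruvate and phosphoenolpyruvate, was at 327 CPM in the control and at 725 and 691 CPM at 2 h (1.11 ± 0.23). SatP, an acetate and succinate carrier in bacteria, was at 858 CPM against 1742 and 2171 CPM (1.19 ± 0.32), a call lost without either 2 h column. SatP is also counted among the risers of the list of ion channels, exchangers and pumps. D-3-phosphoglycerate dehydrogenase, the first step of serine synthesis, was at 1.21 CPM against 5.74 and 11.6 CPM (2.80 ± 0.70). The other 3 tested genes of that name (CCRYP_003564, CCRYP_010740 and CCRYP_019760) were not called, and of 9 serine synthesis genes, grouped after their values were seen, 2 were called. The next enzyme, phosphoserine aminotransferase (CCRYP_007910), was at 14.2 CPM against 35.8 and 44.8 CPM (1.502 ± 0.35, adjusted p = 0.0170). The called genes that fell were cytosolic glucose-6-phosphate isomerase (CCRYP_006702, -0.89), phosphoglucomutase (CCRYP_006808, -0.71), a phosphoglycerate mutase (CCRYP_001534, -0.85) and pyrophosphate-dependent phosphofructokinase (CCRYP_011751, -0.91), all of sugar phosphate interconversion or glycolysis, as log2 fold changes. Without replicate 1 the list had 6 higher calls and 0 lower ones.

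Enzymes outside that list with the same direction included 2 genes named opine dehydrogenase, enzymes that in animals and bacteria join pyruvate or another keto acid to an amino acid. CCRYP_020427 was at 31.7 CPM in the control and at 116 and 156 CPM at 2 h, 4.28-fold higher (2.10 ± 0.26, adjusted p = 4.84e-05), kept in every alternative. CCRYP_006805, named here after its values were seen, was at 71.6 CPM against 224 and 250 CPM (1.73 ± 0.26, adjusted p = 0.000384). Both columns were over 3 times the control in each gene. Among lipid genes, where 1 of 205 rose (0.488%) and 6 fell (2.93%, against 1.95%; median -0.10), the riser was a 3-oxoacyl-ACP reductase of fatty acid synthesis (CCRYP_018531), at 482 CPM against 881 and 1160 CPM (1.08 ± 0.27). Those that fell included a lipase (CCRYP_020604), at 133 CPM against 57.8 and 73.3 CPM (-1.02 ± 0.25), and a phosphatidylglycerophosphatase (CCRYP_010492), at 43.8 CPM against 24.0 and 20.2 CPM (-0.98 ± 0.27).

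**Figure D3:**
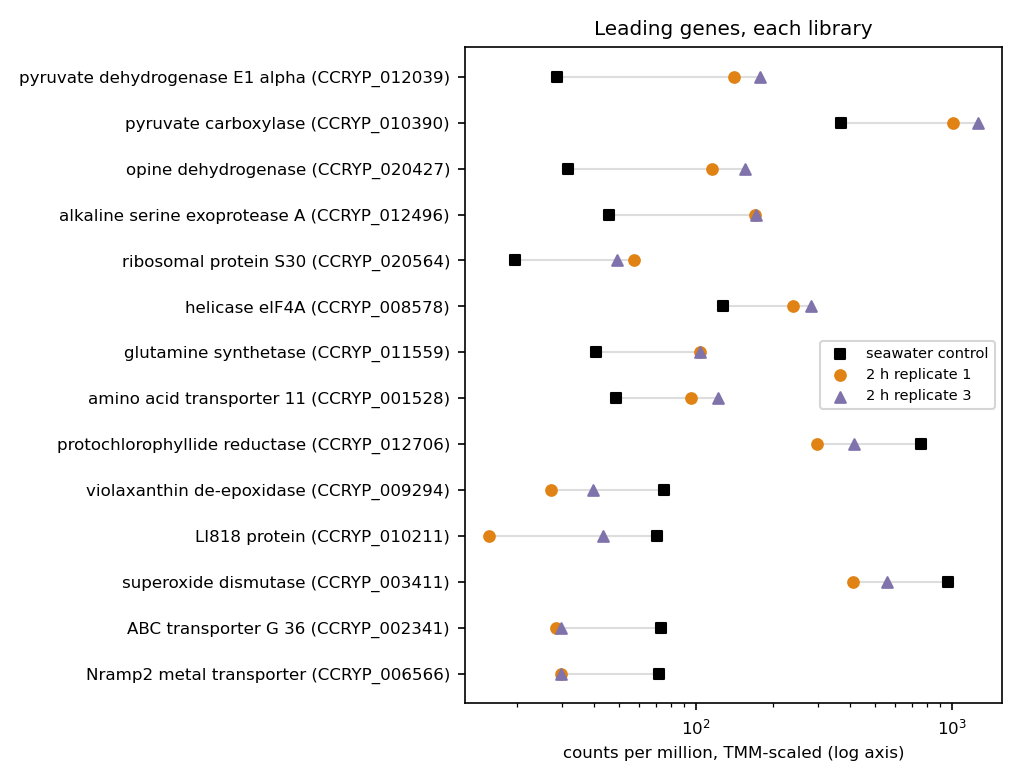
Level in TMM-scaled CPM, on a log axis, of 14 called genes in the seawater control (black square), 2 h replicate 1 (orange circle) and 2 h replicate 3 (purple triangle), 1 gene a row. The upper 8 genes lie above the control in both 2 h columns, pyruvate dehydrogenase E1 alpha at 141 and 178 against 28.7, and the lower 6 lie below it, with replicate 1 the lowest in 5 of them.

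Nitrogen and amino acid genes included several that rose. Of 95 osmolyte and amino acid genes 5 rose (5.26%, against 2.94%) and 1 fell (1.05%), with a median of 0.12, and without 2 h replicate 1 the counts were 1 and 0. Plastid glutamine synthetase (CCRYP_011559), which fixes ammonium into glutamine, was at 40.8 CPM in the control and at 104 and 103 CPM at 2 h (1.34 ± 0.34, adjusted p = 0.0329). A branched-chain aminotransferase (CCRYP_009721) was at 19.9 CPM against 53.7 and 43.4 CPM (1.28 ± 0.31), and threonine synthase (CCRYP_003692) at 15.7 CPM against 38.5 and 35.0 CPM (1.23 ± 0.32). Each gene's columns were above 2 times the control. Arginase (CCRYP_002853, 1.17) and the type-3 glutamine synthetase (CCRYP_021158, 0.82) were the other risers, and glycerol kinase (CCRYP_000219, -0.94), which phosphorylates the solute glycerol, fell. Nitrite reductase (CCRYP_004855), of nitrate assimilation, was at 44.4 CPM against 95.0 and 109 CPM (1.20 ± 0.33), 1 of 2 calls among 53 nitrogen, phosphate and sulfur genes. Genes that break down or carry known osmolytes included proline dehydrogenase (CCRYP_011235), at 36.5 CPM in the control against 26.7 and 29.3 CPM, and the glycine betaine and proline transporter CCRYP_014122 at 832 CPM against 591 and 693 CPM, neither called.

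Single ion and solute transporters were called in both directions. The shares called higher were below the 2.94% of all tested genes, and the shares called lower were above their 1.95%. Of 132 ion channels, exchangers and pumps 3 rose (2.27%) and 5 fell (3.79%), with a median of -0.23, and of 253 other transporters 5 rose (1.98%) and 8 fell (3.16%), with a median of -0.16. Without 2 h replicate 1 these counts were 1 and 0, and 0 and 2. The 3 that rose in the first list include SatP (CCRYP_009163), which is counted among the central carbon genes too. The lists were matched on protein names, and a P-type proton pump called higher (CCRYP_019860) fell outside the first. An ABC transporter of the G family (CCRYP_002341), a class that exports lipids and other compounds in plants, was at 72.8 CPM in the control and at 28.4 and 29.6 CPM at 2 h (-1.33 ± 0.23, adjusted p = 0.00283). The metal transporter Nramp2 (CCRYP_006566), which carries divalent metals, was at 71.9 CPM against 29.7 and 29.6 CPM (-1.27 ± 0.24, adjusted p = 0.00392). The columns of each gene were nearly equal at 2 h, the control was over 2 times higher, and every alternative kept both calls. The sulfate transporter YbaR (CCRYP_005475) was at 74.3 CPM against 26.4 and 38.3 CPM (-1.20 ± 0.27), 1 of the 2 calls in the nitrogen, phosphate and sulfur list, and it was lost without replicate 1.

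Among ion carriers the plastid potassium efflux antiporter 3 (CCRYP_007320) was at 96.0 CPM in the control against 47.6 and 60.7 CPM (-0.83 ± 0.25, adjusted p = 0.0497), a call that 5 alternatives ended. A sodium/hydrogen exchanger (CCRYP_003974) fell by 0.79 on the log2 scale and the mechanosensitive channel protein 9 (CCRYP_014152), a class of channel that opens under membrane tension, by 0.80. A gene named as a sodium-coupled neutral amino acid transporter (CCRYP_001528) rose from 48.9 CPM to 95.6 and 122 CPM (1.15 ± 0.25, adjusted p = 0.0113), kept in every alternative, and subunit D of the V-type proton pump (CCRYP_012123) rose with a log2 fold change of 0.81. A mitochondrial di- and tricarboxylate carrier (CCRYP_007064), listed at 3.62 CPM in the control against 9.80 and 14.1 CPM (1.71 ± 0.50), and the ADP,ATP carrier (CCRYP_018686), at 242 CPM against 438 and 537 CPM (1.01 ± 0.28), also rose. The call of CCRYP_007064 was ended by 7 of the 13 alternatives. Of 48 genes of mitochondrial respiration 2 rose (4.17%, against 2.94% of all tested genes) and 1 fell (2.08%, against 1.95%). Their median was 0.36, and 0 were called without replicate 1. Alternative oxidase (CCRYP_014055), which passes electrons to oxygen past the main pumps, was at 53.7 CPM against 115 and 84.2 CPM (0.89 ± 0.26), and a gene named as an NADH-ubiquinone oxidoreductase (CCRYP_001793) was at 163 CPM against 88.2 and 104 CPM (-0.77 ± 0.22).

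Stress-related lists gave few calls. Among 55 genes named as heat shock transcription factors, a family that diatom genomes hold in many copies, 1 rose. That is 1.82%, against 2.94% of all tested genes. Their median was 0.47, and 40 had both columns above the control, as had 5443 of all 12501 tested genes. The gene that rose, named heat stress transcription factor A-3 (CCRYP_006349), had 1 control count and 27 and 17 counts at 2 h. Its ratio was 25.4, with a 95% exact counting interval of 4.34 to 1028. Against 0 min the family's median was -0.18, and 0 of the 55 were called in either direction. Of 88 chaperones 2 rose and 2 fell (2.27% each, median 0.23), shares near those of all tested genes, and 0 were called without replicate 1. A heat shock cognate 70 protein (CCRYP_020418), a folding chaperone, was at 29.0 CPM in the control against 61.8 and 62.9 CPM (1.10 ± 0.29), and a DnaJ co-chaperone (CCRYP_008213) at 7.85 CPM against 23.3 and 17.7 CPM (1.38 ± 0.39). The P58IPK co-chaperone (CCRYP_016570) was lower, at 87.0 CPM against 52.4 and 45.2 CPM (-0.83 ± 0.24).

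Of 98 antioxidant and redox genes 7 fell (7.14%, against 1.95%) and 3 rose (3.06%, against 2.94%), with a median of -0.05. Superoxide dismutase (CCRYP_003411), which removes superoxide, was at 969 CPM in the control against 410 and 556 CPM (-1.004 ± 0.25, adjusted p = 0.0275). The other calls to fall were 3 glutaredoxins, a dehydroascorbate reductase (CCRYP_007203), a catalase-peroxidase (CCRYP_020615) and a glutathione peroxidase (CCRYP_004034), with log2 fold changes from -0.96 to -0.80. Thioredoxin H4 (CCRYP_013781) was higher, at 16.9 CPM against 37.8 and 41.5 CPM (1.23 ± 0.30), as was the methionine sulfoxide reductase A4 (CCRYP_011349), which repairs oxidised protein, at 18.1 CPM against 40.9 and 34.0 CPM (1.05 ± 0.30). The reductase lost its call in 6 of the 13 alternatives. Without replicate 1, 0 members of the list were called.

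Calcium and kinase genes that rose were mostly at low counts. Of 47 calcium signalling genes 3 rose (6.38%, against 2.94%) and 0 fell (median 0.36). The regulatory subunit B of calcineurin (CCRYP_007721), a calcium-activated phosphatase, had 6 counts or 1.81 CPM in the control against 15.5 and 8.31 CPM (2.704 ± 0.55, adjusted p = 0.00918). A calmodulin-dependent kinase (CCRYP_013449) was at 7.25 CPM against 19.6 and 17.3 CPM (1.35 ± 0.38). A gene named for a calcium-binding protein of Arabidopsis (CCRYP_013470) was at 42.0 CPM against 80.1 and 103 CPM (1.12 ± 0.24), and only this call of the 3 was kept in every alternative. Of 112 other protein kinases 3 rose (2.68%) and 1 fell (0.893%), shares below those of all tested genes (median 0.08). PAK 3 (CCRYP_015460) was at 1.51 CPM against 7.77 and 11.6 CPM (2.65 ± 0.63). RIO1 (CCRYP_018836), of ribosome maturation in yeast, was at 7.25 CPM against 20.3 and 17.3 CPM (1.37 ± 0.40), a call that 8 of the 13 alternatives ended. Kinase 16 (CCRYP_013423) was at 35.9 CPM against 16.9 and 17.3 CPM (-1.07 ± 0.29).

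Among 185 proteasome and ubiquitin genes 4 rose (2.16%) and 2 fell (1.08%), with a median of 0.30. These shares were below those of all tested genes (2.94% and 1.95%). Without 2 h replicate 1 the counts were 0 and 1. A ubiquitin-like modifier-activating enzyme 1 gene (CCRYP_002673), named for the first step of ubiquitin attachment, was at 111 CPM in the control and at 52.0 and 48.0 CPM at 2 h (-1.15 ± 0.23, adjusted p = 0.00769), kept in every alternative. The ubiquitin hydrolase 2 gene (CCRYP_011069) was at 12.1 CPM against 36.5 and 23.5 CPM (1.31 ± 0.36), and desumoylating isopeptidase 1 (CCRYP_002014) at 32.0 CPM against 62.5 and 56.0 CPM (0.89 ± 0.23). Of 160 other proteases 5 rose (3.12%, near the 2.94% of all tested genes) and 6 fell (3.75%, against 1.95%), with a median of -0.26. Most of these calls were lost without replicate 1. Alkaline serine exoprotease A (CCRYP_012496), a secreted protease in bacteria, was at 45.9 CPM against 170 and 172 CPM, 3.72-fold higher (1.90 ± 0.32, adjusted p = 0.00288) and kept in every alternative. A peptidyl-Asp metalloendopeptidase (CCRYP_012891) was at 23.9 CPM against 85.5 and 97.9 CPM (1.94 ± 0.51, adjusted p = 0.0489), and methionine aminopeptidase 2B (CCRYP_020145), which trims new proteins, at 18.1 CPM against 44.9 and 34.7 CPM (1.14 ± 0.29).

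Further lists had 0 or 1 call, while 2.94% of all tested genes were called higher and 1.95% lower. In vesicle traffic 1 of 130 genes fell (VPS13, CCRYP_010547, 213 CPM against 118 and 132 CPM, -0.77 ± 0.21), and in cytoskeleton and motors 1 of 73 fell (a kinesin, CCRYP_013065, 14.8 CPM against 5.07 and 3.97 CPM, -1.70 ± 0.48). Histone modifiers, other transcription factors and the silica and cell wall list had 0 called of 42, 32 and 45 tested. In these 3 lists the medians were 0.21, 0.15 and -0.19. The gene named LSI2 (CCRYP_016289) was at 464 CPM in the control against 248 and 345 CPM and was not called.

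Among the largest changes outside these lists, several rested on few counts. A glutamine-fructose-6-phosphate aminotransferase (CCRYP_013935), which starts amino sugar synthesis, had 5 counts or 1.51 CPM in the control against 11.2 and 13.0 CPM (2.97 ± 0.79). A haloacid dehalogenase-like hydrolase (CCRYP_019221) was at 1.21 CPM against 11.5 and 5.42 CPM (2.78 ± 0.77), and an ankyrin repeat protein (CCRYP_001957) at 1.81 CPM against 9.12 and 7.95 CPM (2.22 ± 0.61). In all 3 genes both columns exceeded the control at fewer than 40 counts a column. Lower genes with more counts were a plastid Fe-S cluster assembly factor, HCF101 (CCRYP_005936), at 121 CPM against 37.2 and 59.6 CPM (-1.33 ± 0.26, adjusted p = 0.00769), and a Ycf49-like protein (CCRYP_021064), at 29.3 CPM against 10.8 and 11.6 CPM (-1.39 ± 0.38).

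Genes with no protein name in the files held 319 of the 611 calls (52.2%), against 6765 of the 12501 tested genes (54.1%). CCRYP_012615 had 0 counts in the control and 19 and 14 at 2 h, a mean level at least 6.34-fold higher than the 0.906 CPM that 3 counts would give in the control library. CCRYP_002980 had 1 control count and 86 counts summed over the 2 h columns, a ratio of 49.7 with an exact counting interval of 8.69 to 1987, and CCRYP_013826 had 1 against 69, a ratio of 39.9 (6.93 to 1599). Intervals and floors cover counting error only. Of those that fell, CCRYP_010255 had 18 control counts and 1 summed 2 h count, 31.1-fold lower with an interval of 4.92 to 1297, CCRYP_000052 was at 7.55 CPM against 2.03 and 1.08 CPM (-2.24 ± 0.61), and CCRYP_007154 was at 34.7 CPM against 8.79 and 8.31 CPM (-2.02 ± 0.30, adjusted p = 0.000348). Of these 6 genes, CCRYP_007154 was the one that kept its call in every alternative.

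The 0 min freshwater column gave a second baseline, since those cells had been transferred, and the seawater control has 1 column. The 2 h columns enter both comparisons, so each gene's values are set side by side and no overlap is counted. Against 0 min 184 of 12501 genes were called (1.47%), 167 higher (1.34%) and 17 lower (0.136%). Several of the genes with the largest changes from the control were called here too, among them the following 3. Pyruvate dehydrogenase E1 alpha (CCRYP_012039) was at 22.2 CPM at 0 min (log2 fold change of 2 h over 0 min 2.85, adjusted p = 7.57e-05). The opine dehydrogenase CCRYP_020427 was at 24.3 CPM (2.48) and pyruvate carboxylase (CCRYP_010390) at 268 CPM (2.08). Others of the genes with the largest rises over the control were not called against 0 min. Among these, PAK 3 (CCRYP_015460) was at 8.31 CPM at 0 min (0.21) and calcineurin subunit B (CCRYP_007721) at 6.15 CPM (0.96). Heat stress transcription factor A-3 (CCRYP_006349) was at 4.00 CPM (0.93). The E1 beta gene CCRYP_008722 was at 12.6 CPM at 0 min, and its difference was not called (-1.71, adjusted p = 0.111). The E1 beta gene CCRYP_011180 was at 20.6 CPM (0.64) and was not called either. In the central carbon list 10 of 143 genes were higher and 1 lower.

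Against 0 min 0 of 35 light-harvesting and 0 of 44 pigment synthesis genes were called in either direction, with medians of -0.39 and -0.22. Over all tested genes 1.34% were called higher and 0.136% lower, so 0 calls do not set lists of this size apart. Protochlorophyllide reductase (CCRYP_012706) was at 537 CPM at 0 min, between the control and the 2 h values (-0.59, adjusted p = 0.376). A difference from the control that is not called from 0 min is not thereby shown to be absent, since each baseline is 1 column. Cytosolic ribosomal proteins had 2 of 74 higher than at 0 min, against 1.34% of all tested genes, and their median was 0.59. Nramp2 (CCRYP_006566) was at 61.8 CPM and the ABC transporter CCRYP_002341 at 59.4 CPM at 0 min, and both were called lower at 2 h against it (-1.06 and -1.03).

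Against 1 h, the nearest earlier time, 78 genes were called (0.624%), 5 higher (0.04%) and 73 lower (0.584%). The lower genes included 6 of 44 tRNA ligases, 4 of 74 ribosome biogenesis genes, 4 of 88 chaperones and 10 of 143 central carbon genes. The helicase eIF4A (CCRYP_008578) was at 494 CPM at 1 h against 239 and 281 CPM at 2 h (-0.93, adjusted p = 0.0271), and the heat shock cognate 70 gene (CCRYP_020418) at 146 CPM against 61.8 and 62.9 CPM (-1.23, adjusted p = 0.0227). Both were above the control at 2 h and below their 1 h level. Without 2 h replicate 1 there were 0 calls by edgeR, with 1638 genes at an unadjusted p below 0.05, and without replicate 3 there were 17. With both columns limma-voom called 59 genes and DESeq2 117. None of the 35 light-harvesting or 74 cytosolic ribosomal protein genes was called, and their medians were 0.22 and -0.37.

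Against 4 h, with 2 independent columns on each side, 271 genes were called (2.17%), 250 higher at 2 h (2.0%) and 21 lower (0.168%). Ribosomal proteins and their assembly factors were among those higher at 2 h, with 23 of 74 cytosolic ribosomal proteins, 18 of 74 ribosome biogenesis genes, 10 of 57 translation factors and 9 of 63 RNA helicases called higher and 0 called lower. Glutamine synthetase (CCRYP_011559) was at 104 and 103 CPM at 2 h and at 13.9 and 27.9 CPM at 4 h (log2 fold change 2.33, adjusted p = 0.000254), and the heat shock cognate 70 gene was at 61.8 and 62.9 CPM against 19.1 and 25.3 CPM (1.496). Neither of the following was called against 4 h: pyruvate dehydrogenase E1 alpha was at 157 and 213 CPM there and pyruvate carboxylase at 1160 and 1486 CPM. Leaving out 4 h replicate 2 left 34 calls and leaving out 4 h replicate 3 left 411.

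**Figure D4:**
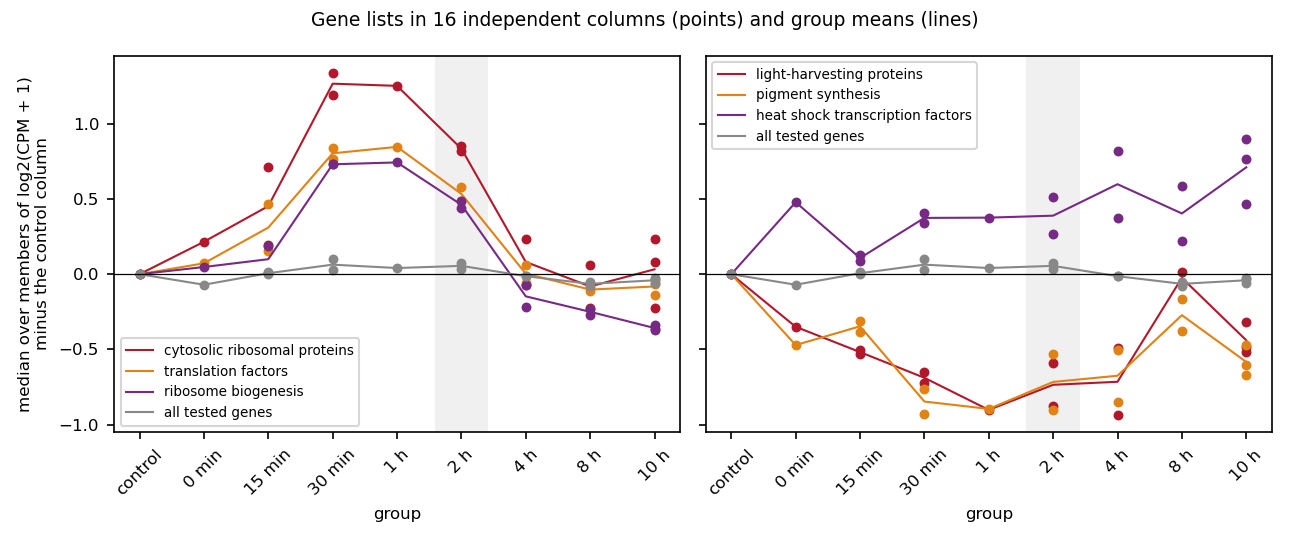
Median over a list's tested members of log2(CPM + 1) minus the control column (y axis) in 16 independent columns (points) by group (x axis), with lines through the group means and 2 h shaded. Cytosolic ribosomal proteins are at 1.34 and 1.19 at 30 min, 1.25 at 1 h, 0.82 and 0.85 at 2 h and -0.07 and 0.23 at 4 h. Light-harvesting proteins are at -0.88 and -0.59 at 2 h.

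Set among all times, the genes called at 2 h followed more than one course. Pyruvate dehydrogenase E1 alpha (CCRYP_012039) was at 78.9 and 74.4 CPM at 15 min, at 28.8 and 11.9 CPM at 30 min, at 106 CPM at 1 h and, after 4 h, at 23.1 and 25.2 CPM at 8 h. It was above the control at 15 min, not above it in both columns at 30 min, and above it again from 1 to 4 h. It lay below the control at 8 h and above it at 10 h, with 61.7, 65.3 and 72.3 CPM. The opine dehydrogenase CCRYP_020427 was also above the control at 15 min and below it at 30 min, with 67.7 and 55.1 CPM at 15 min, 26.4 and 21.1 CPM at 30 min, and it was still above the control at 8 h, with 44.9 and 51.6 CPM. Glutamine synthetase (CCRYP_011559) was at 143 and 139 CPM at 30 min and 171 CPM at 1 h, so its 2 h level lay below an earlier maximum, and it was at 5.39 and 10.8 CPM at 8 h. Nramp2 (CCRYP_006566) was at 22.0 CPM at 1 h and at 62.9 and 73.3 CPM at 8 h, around the control's 71.9 CPM. At 10 h it was at 54.2, 68.9 and 49.0 CPM. These courses are descriptions of 16 columns and were not tested here.

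**Figure D5:**
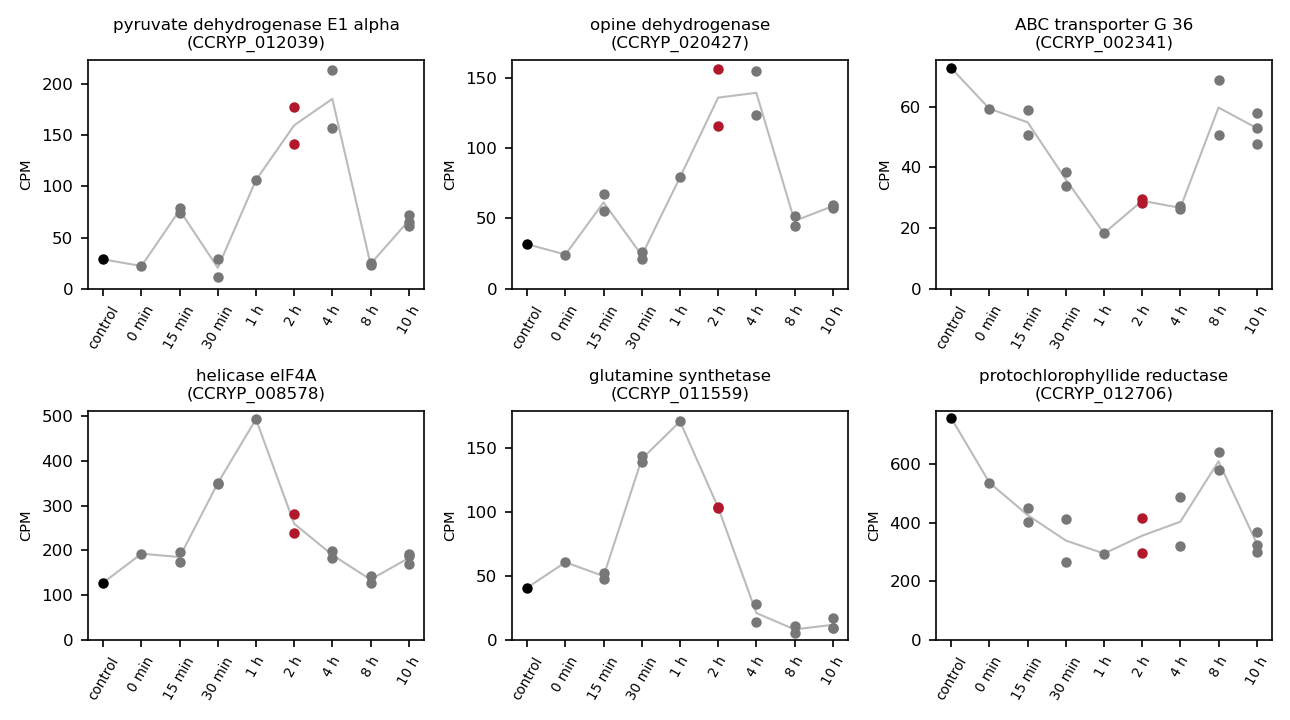
Level in CPM (y axis, from 0) of 6 genes in every independent column by group (x axis), with the control in black, 2 h in red, other times in grey and a line through the group means. Pyruvate dehydrogenase E1 alpha and opine dehydrogenase are high at 2 h and 4 h, eIF4A and glutamine synthetase are highest at 1 h, and the ABC transporter and protochlorophyllide reductase are lower at 2 h than in the control.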

How the data were processed

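Messenger RNA of Cyclotella cryptica was sequenced in 27 labelled samples of 9 groups. The authors deposited whole-number counts per gene, made with STAR 2.7.3a and HTSeq 0.11.3 per the submitters' processing notes. The notes name no genome build or gene models, and strandedness of the counting was likewise not given, so overlapping, antisense and near-identical genes are uncertain. Rows that name no gene (reads aligned in more than 1 place or ambiguous) entered neither library sizes nor tests. Columns that were copies or means of others were left out, which left 16. Limits for this were set on genes with at least 100 counts after the columns had been seen. Genes passing filterByExpr (minimum count 10, minimum total 15) were scaled by TMM and tested with the robust quasi-likelihood test of edgeR 4.0.16 (R 4.3.3), with 1 coefficient per group and 7 residual degrees of freedom over 12501 genes. Errors after ± are standard errors of the log2 fold change. Exact intervals are at 95%, and floors are 3 counts. The method was tested on simulated data.

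Of 21250 genes 5810 had a protein name; names and roles come from similarity to other organisms. Looking up the IDs among the 14109 genes of RefSeq's table gave 0 matches, so no coordinates or sequences are given. Columns matched to no sample numbered 0.

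The comparison, gene lists and rules were chosen with earlier results of these data known, and list patterns were corrected after the matched names were seen. Named genes were called genes with both 2 h columns on 1 side of the control and at least 10 counts in each column of the higher group. They are the 10 highest and 10 lowest log2 fold changes with a protein name other than an uncharacterized one, the 3 highest and 3 lowest without one, and the 3 largest of each list. Other called genes named in the text were chosen after their values were seen. Alternatives used DESeq2 1.42.0, limma-voom (limma 3.58.1), other scalings and filters, and columns left out. The fit had no replicate block.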

Additional observations from a re-analysis of the deposited data

How the results depend on the processing

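The counts of calls at 2 h moved as follows. Against the seawater control (611), all 27 columns as deposited gave 6515, no filter 1272, the replicate block 1393 and limma-voom 327; leaving out a 2 h replicate gave 98 to 659. Against 0 min (184) the values were 4321 with all 27 columns and 400 without a filter, and 97 to 149 with a 2 h replicate left out. Against 1 h (78) they were 4501, 244 without a filter, 244 with library sizes alone, 200 with only the 2 groups compared and 13 with the replicate block, and 0 to 17 with a 2 h replicate left out. Against 4 h (271) they were 2946, 568 without a filter and 169 with only the 2 groups compared, and 34 to 411 with a replicate left out. All 27 columns treat copies and means as samples, which by construction shrinks the spread; for the others the cause was not tested.

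Of 84 named genes 11 kept their call in all 13 alternatives, none changed sign, and 17 kept it without 2 h replicate 1. Correlations of the deviations of same-numbered columns ran from -0.163 to 0.357 over 24 pairs, with 8 above 0.1. Not every pair passed that mark, so the numbers were not taken to pair the samples. With 1 control column of 3537770 counts, genes under about 10 counts there have wide counting error, and the choice of that column among 3 shifted copies gave 489 calls when their mean was used.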

Other observations

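Genes named prolyl 4-hydroxylase, enzymes that hydroxylate proline in proteins, were looked at after their values had been seen. Of 30 tested genes 3 were higher and 1 lower at 2 h than in the seawater control (median log2 fold change -0.05). Against 0 min 6 were higher and 0 lower. Over all tested genes the shares were 2.94% higher and 1.95% lower against the control, and 1.34% and 0.136% against 0 min. CCRYP_006220 was at 318 CPM in the control and at 726 and 986 CPM at 2 h (1.43, adjusted p = 0.0114 by edgeR's quasi-likelihood test). CCRYP_011391 was at 326 CPM against 715 and 867 CPM (1.28) and CCRYP_010032 at 419 CPM against 874 and 1066 CPM (1.21). The gene that fell, CCRYP_008674, was at 67.0 CPM against 30.4 and 43.4 CPM (-0.86), so members of the family were called in both directions.

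Genes of purine synthesis and the HSP70 and HSP90 chaperones, also chosen after their values were seen, had calls against several baselines. Of 9 purine synthesis genes 5 were lower at 2 h than at 1 h, 3 were higher than at 4 h and 1 was higher than the control. Over all tested genes these shares were 0.584%, 2.0% and 2.94%. Amidophosphoribosyltransferase (CCRYP_006234), the first committed step, was at 28.7 CPM in the control and 51.0 and 59.97 CPM at 2 h (0.95, adjusted p = 0.0274). At 0 min it was at 52.3 CPM (log2 fold change of 2 h over 0 min 0.08), and 0 of the 9 purine synthesis genes were called against 0 min. Of 8 such chaperone genes 4 were lower than at 1 h, 2 were higher than at 4 h, 1 was higher than the control and 1 was higher than at 0 min. The share of all tested genes called higher than at 0 min was 1.34%. HSP90-3 (CCRYP_020355) was at 272 CPM in the control and 319 and 363 CPM at 2 h, which was not called. A proton pump of the P type, named proton ATPase 1B (CCRYP_019860), was at 125 CPM in the control, 609 CPM at 1 h, 251 and 290 CPM at 2 h and 122 and 119 CPM at 4 h, and was called higher than the control at 2 h (1.11, adjusted p = 0.00966).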
